A study of Homo sapiens with 12 samples.

Results

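The regions described here are changed H2A.Z regions that carry no listed acetylated H2A.Z. They were chosen by the authors' classes of both marks: a region is a member when it is listed as higher in 1 of the 2 cell lines for H2A.Z and shares no base with any of the 94586 regions listed for H2A.Zac, whatever the class of that H2A.Zac region. Of 12592 H2A.Z regions lost in ΔTRRAP cells, 3255 were members, and of 8965 regions gained in ΔTRRAP cells, 1623 were members. Together these are 4878 of the 63442 H2A.Z regions listed. The lost list holds 19.8% of all H2A.Z regions and the gained list 14.1%, and since these lists chose the members, nothing is read from those shares. Lost means higher in WT and gained means higher in ΔTRRAP.

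ChIP-seq was carried out in K562, a human chronic myeloid leukemia line. Both lines compared carry an FKBP12F36V-2xHA tag on the C terminus of all copies of endogenous EP400, so that the compound dTAGV-1, given at 500 nM for 24 h, directs the tagged protein to degradation. They express from the AAVS1 locus either WT EP400 or ΔTRRAP EP400, which lacks the SANT and HD part that holds TRRAP. Input, H2A.Z and H2A.Zac were each sequenced in 2 biological replicates of both lines, which makes 12 libraries. Each line is 1 clone, so a difference between the clones and a difference between the EP400 proteins cannot be told apart, and neither can a change in all cells and a larger change in some of them. The cell type was checked at marker genes: H2A.Zac was listed within 1 kb of the TSS of 11 of 12 erythroid and megakaryocytic genes, of 7 of 12 lymphoid genes and of 12472 of all 20046 protein-coding genes. H2A.Z was listed at 6 of 12 genes in both lists, so that mark did not separate them.

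H2A.Z is a variant of histone H2A found next to many promoters and enhancers. EP400 is the ATPase of the human TIP60 complex that exchanges H2A for H2A.Z, and the acetyltransferase TIP60 (KAT5) in the same complex acetylates H2A.Z, while TRRAP is the large scaffold that activators contact. Deposition and acetylation are thus distinct activities of the same complex, but they are linked. In the authors' assay with purified TIP60, adding acetyl-CoA raised the exchange of H2A.Z. The SRCAP complex also incorporated H2A.Z.

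The sequences below are the 300 bases (hg38, plus strand) around the middle of 2 lost and 3 gained members, taken from those with the highest likelihood ratios among members with no other H2A.Z region within 1 kb, and outside untranslated regions. They are shown because no other H2A.Z region lies close to them, so that each can be read as a single region. Gained members with other H2A.Z regions nearby reached higher ratios. Capitals mark matches to any of 11 short transcription factor motifs that were searched on both strands.
Lost, chr12:116373408-116373707: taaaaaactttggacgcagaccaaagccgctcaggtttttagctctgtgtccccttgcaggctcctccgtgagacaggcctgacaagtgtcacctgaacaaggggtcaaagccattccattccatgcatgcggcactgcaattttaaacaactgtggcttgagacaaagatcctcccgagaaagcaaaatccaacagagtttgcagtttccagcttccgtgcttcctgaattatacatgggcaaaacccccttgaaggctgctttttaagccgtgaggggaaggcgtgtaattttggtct
Lost, chr5:3848690-3848989: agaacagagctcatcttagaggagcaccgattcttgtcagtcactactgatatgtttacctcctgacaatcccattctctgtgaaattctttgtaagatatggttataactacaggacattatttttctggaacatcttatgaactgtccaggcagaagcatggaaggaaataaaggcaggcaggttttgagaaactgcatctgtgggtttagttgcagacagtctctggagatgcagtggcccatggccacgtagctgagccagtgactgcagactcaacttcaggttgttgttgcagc
Gained, chr5:173648530-173648829: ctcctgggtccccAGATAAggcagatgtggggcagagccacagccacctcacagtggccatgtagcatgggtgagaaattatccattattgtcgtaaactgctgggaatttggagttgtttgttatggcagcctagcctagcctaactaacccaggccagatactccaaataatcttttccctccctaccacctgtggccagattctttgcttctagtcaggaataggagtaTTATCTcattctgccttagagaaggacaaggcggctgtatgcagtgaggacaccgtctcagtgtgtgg
Gained, chrX:66015218-66015517: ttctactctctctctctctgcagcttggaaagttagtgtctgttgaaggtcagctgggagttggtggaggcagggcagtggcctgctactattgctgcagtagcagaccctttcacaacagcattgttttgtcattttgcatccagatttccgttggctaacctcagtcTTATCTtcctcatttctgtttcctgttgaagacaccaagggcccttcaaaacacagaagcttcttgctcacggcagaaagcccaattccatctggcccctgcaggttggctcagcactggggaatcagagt
Gained, chr12:14884586-14884885: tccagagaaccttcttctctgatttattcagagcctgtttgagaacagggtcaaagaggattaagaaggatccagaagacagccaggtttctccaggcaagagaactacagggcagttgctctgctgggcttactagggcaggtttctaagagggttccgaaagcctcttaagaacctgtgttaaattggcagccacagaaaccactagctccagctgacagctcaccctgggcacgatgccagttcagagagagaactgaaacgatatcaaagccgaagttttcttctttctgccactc
No capital occurs in the 2 lost sequences. The gained sequence on chromosome 5 holds AGATAA, a motif of GATA factors, once on each strand, and the one on chromosome X holds it once on the minus strand. The gained sequence on chromosome 12 holds none. It lies in an intron of MGP, which encodes matrix Gla protein, an inhibitor of calcification.

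A larger part of the lost than of the gained H2A.Z regions lacked listed H2A.Zac. The share was 25.9% of lost regions (Wilson 95% confidence interval, 25.1 to 26.6%), 18.1% of gained regions (17.3 to 18.9%) and 13.7% of unchanged regions (13.4 to 14.1%). Leaving out any 1 chromosome kept it between 25.3 and 26.9% for lost and between 17.7 and 18.3% for gained regions. The lost share was above the gained share on 23 of 23 chromosomes (1 to 22 and X). Gained regions therefore made up 33.3% of the members (32.0 to 34.6%) and 44.02% of the changed regions with H2A.Zac (43.3 to 44.8%). The lists also differed in place, since 37.0% of gained and 18.1% of lost H2A.Z regions lay within 1 kb of a TSS. Among the other, TSS-distal regions, 2940 lost regions lacked listed H2A.Zac and 7369 had it. The counts were 1370 and 4276 for gained and 4823 and 20248 for unchanged regions. The lost and gained shares were thus closer among distal regions than over all regions. All these shares describe the lists the members were chosen from. The lists hold no value per replicate, so no test across replicates could be made, and the intervals cover counting error only. Among regions with a ratio of at least 10 the shares were closer, at 27.5% of lost and 25.1% of gained regions. These rest on fewer regions, 388 of 1409 lost and 227 of 903 gained, so their counting error is larger.

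**Figure D1:**
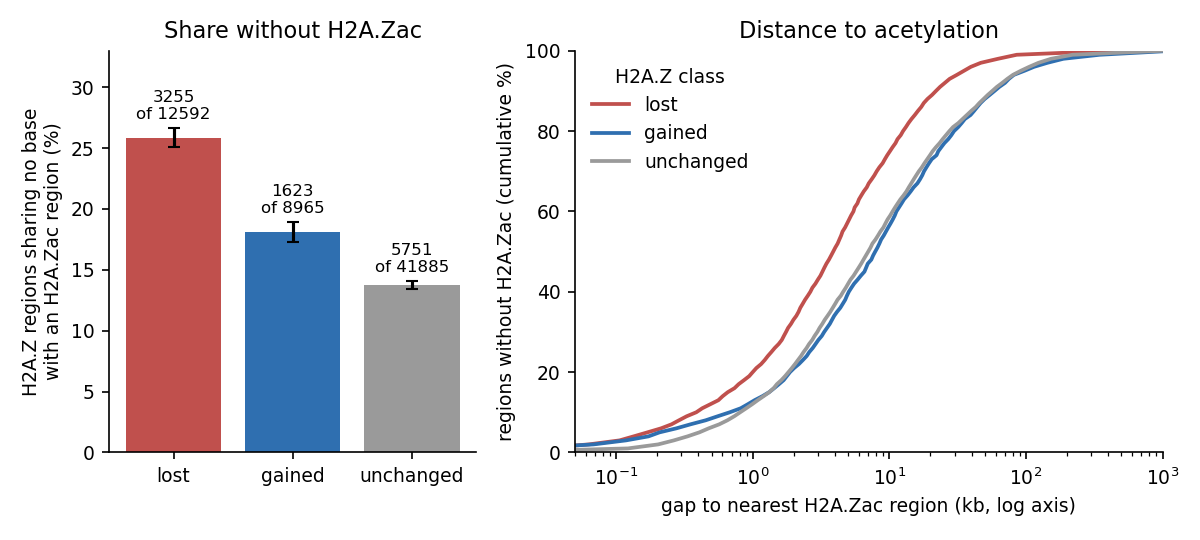
Left, percentage of lost, gained and unchanged H2A.Z regions that share no base with an H2A.Zac region, with Wilson 95% intervals. Right, cumulative percentage of these regions by the gap to the nearest H2A.Zac region in kb on a log axis. The median gap is 3.88 kb for lost, 7.88 kb for gained and 7.001 kb for unchanged regions.

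The absence of a region from the H2A.Zac lists is not the absence of acetylation. The authors listed only regions in peaks found in both replicates. The highest numbers in the names of the H2A.Zac regions sum to 153767 over the 3 lists, and the regions listed are 61.5% of that. For H2A.Z they are 54.97% of 115420. Signal tracks were not analysed here, so low H2A.Zac and none cannot be told apart at the members.

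The median likelihood ratios of the members were not lower than those of changed regions with H2A.Zac. The authors' log10 likelihood ratio, which reflects depth and width besides the size of the difference, had a median of 6.11 in lost members (5.90 in lost regions with H2A.Zac) and of 5.95 in gained members (5.39 in gained regions with H2A.Zac). It ran from 3.16 to 30.2 in lost and from 3.19 to 43.3 in gained members, and reached 57 in lost and 53.4 in gained regions with H2A.Zac. The median width was 518 bp for lost and 467 bp for gained members, and the members covered 2106 kb and 965 kb in all. At the edge of the rule, 93 lost and 44 gained members had an H2A.Zac region within 100 bp, with median ratios of 4.87 and 4.83. Just outside it, 60 lost and 36 gained H2A.Z regions shared 1 to 50 bases with H2A.Zac, with median ratios of 4.79 and 4.70.

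Lost members lay closer to listed H2A.Zac regions than gained members did. An H2A.Zac region lay within 1 kb of 20.03% of lost members (18.7 to 21.4%) and 12.5% of gained members (11.0 to 14.2%), and no H2A.Zac region lay within 10 kb of 25.3% of lost members (23.8 to 26.8%) and 43.6% of gained members (41.2 to 46.0%). Where H2A.Zac was near, it had mostly changed the same way. Of 1879 lost members with H2A.Zac within 5 kb, the nearest such region was lost for 1191 (63.4%, 61.2 to 65.5%), unchanged for 643 and gained for 45. Of 645 gained members, it was gained for 397 (61.6%, 57.7 to 65.2%), unchanged for 213 and lost for 35. At unchanged H2A.Z regions without H2A.Zac the nearest H2A.Zac region was lost in 32.7% and gained in 16.9%, and of all H2A.Zac regions 25.9% were lost and 26.3% gained. The class of a neighbor was not used by the rule.

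**Figure D2:**
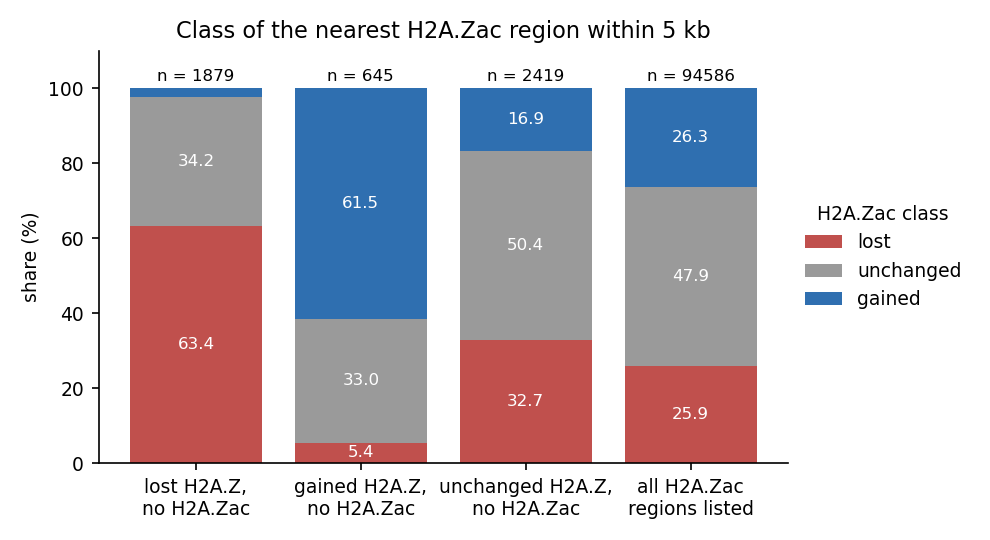
Class of the nearest H2A.Zac region, in percent, for members and for unchanged H2A.Z regions without H2A.Zac where such a region lies within 5 kb, and the classes of all listed H2A.Zac regions. The nearest region was of the member's own direction in 63.4% of lost and 61.6% of gained members.

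Most members had another H2A.Z region close by, though fewer than changed regions with H2A.Zac did. Another H2A.Z region lay within 1 kb of 57.3% of lost members (55.6 to 59.0%) and 54.0% of gained members (51.5 to 56.4%), against 73.9% of lost and 80.7% of gained regions with H2A.Zac. For lost members this neighbor was unchanged in 1106, lost in 754 and gained in 4 of 1864 cases. For gained members it was unchanged in 593, gained in 280 and lost in 3 of 876 cases. The neighbor itself shared bases with H2A.Zac in 23.2% of these lost and 15.6% of these gained cases. An H2A.Z region of the opposite direction was thus rarely the nearest one. Another H2A.Z region directly abutted 20.5% of lost and 25.3% of gained members, and 48.7% of lost and 56.6% of gained regions with H2A.Zac. The authors' comparison assigns classes along the pileup, so parts of 1 peak can be listed in different classes.

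Members were mainly distal. Only 315 lost members lay within 1 kb of an annotated TSS (9.68%, 8.71 to 10.7%) and 253 gained members did (15.6%, 13.9 to 17.4%). In changed regions with H2A.Zac the shares were 21.1% (20.3 to 21.9%) and 41.8% (40.6 to 42.9%), and in unchanged regions without H2A.Zac 16.1% (15.2 to 17.1%). Lost members were intergenic in 54.2%, intronic in 38.6% and exonic in 7.13% of cases, against 41.6%, 47.3% and 11.2% of gained members. The median distance to the nearest protein-coding TSS was 32.5 kb for lost and 54.6 kb for gained members, and 22.8% of lost and 36.0% of gained members lay over 100 kb from one.

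Few protein-coding genes had a member within 1 kb of their TSS. Lost members lay there at 118 genes, or 0.589% of 20046 genes, and gained members at 153 genes, or 0.763%. The likelihood ratio of the member had a median of 5.62 (3.36 to 18.1) at the lost and of 5.53 (3.19 to 27.3) at the gained genes, and 4 genes had both. Most of the gained genes had no listed H2A.Zac in this window at all: another stretch of the window held an H2A.Zac region in 24 of 153 gained and in 52 of 118 lost genes. An unchanged H2A.Z region lay in the same window in 93 of 153 gained and 71 of 118 lost genes. Neither an unchanged H2A.Z region nor H2A.Zac lay there in 58 gained and 38 lost genes.

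The highest ratio at a gained promoter was at CCNG1, the gene of cyclin G1 and a target of p53. The member (chr5:163437581-163438238) began 12 bp downstream of the TSS, in an intron, and had a ratio of 27.3, with the nearest H2A.Zac region 11.0 kb away. DDIT4, which encodes a stress-induced inhibitor of mTORC1, had a gained member with a ratio of 25.3 that began 29 bp downstream of the TSS and was 65.4% GC. Its nearest H2A.Zac region was unchanged and 2.65 kb away. At both genes another gained H2A.Z region lay within 300 bp. MGP followed with a ratio of 25, and there a gained H2A.Zac region lay 341 bp from the member. NIPAL4, of a family of magnesium transporters, shared its member with the gene model ENSG00000285868, with a ratio of 18.3. Like CCNG1 it lies on chromosome 5, where 52.0% of members were gained, against 33.3% of all members. RFX1, a transcription factor gene, had a member over its TSS with a ratio of 14.5, and the nearest H2A.Zac region was lost and 7.27 kb away. The facing genes AARS1 (alanyl-tRNA synthetase) and DDX19B (an RNA helicase of mRNA export) shared a member with a ratio of 12.0, again with lost H2A.Zac as the nearest, 8.98 kb away. The other 2 of the highest gained ratios were 15.5 at ENSG00000257065 and 13.5 at DEFB104A, a β-defensin gene with near-identical copies in the genome, so that its reads may be shared between copies.

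The 10 highest ratios at lost promoters ran from 9.56 to 18.1. PRSS57, a serine protease gene of neutrophil granules, had a member over its TSS with a ratio of 18.1 (chr19:694467-695970), and the nearest H2A.Zac region was unchanged and 7.11 kb away. GARIN1A had a ratio of 15.0, with lost H2A.Zac 10.4 kb away. SEMA4A, a membrane semaphorin gene, had 12.0, with lost H2A.Zac only 420 bp away. SGK2, a kinase gene, had 11.2 and C10orf105, a gene inside CDH23, had 10.8, each with the member over the TSS. Between 9.56 and 10.8 lay C20orf203, CIB3, TMEM150B, CAV2 (a caveolin gene) and USP32 (a deubiquitinase gene). At CAV2 the nearest H2A.Zac region was 25.5 kb away, and at USP32 the nearest other H2A.Z region was 28.8 kb away. For 8 of these 10 lost genes the nearest H2A.Zac region was itself lost. PRSS57, CIB3 and TMEM150B lie on chromosome 19, and SGK2 and C20orf203 on chromosome 20. Only 8.90% and 5.65% of the members of these chromosomes were gained.

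Among 21 gene lists, counts of members at the TSS were low. Clustered protocadherin genes, which encode neuronal cell adhesion proteins, stood at 4 of 53 with a gained member (7.55%) and 0 with a lost member, against 0.763% and 0.589% of all protein-coding genes. These were PCDHGC4 with a ratio of 6.77, PCDHB5 with 6.64, PCDHA8 with 6.6 and PCDHA2. The members of the first 3 lay at or within 82 bp of the TSS, and the nearest H2A.Zac region was 72.5, 40.03 and 114.2 kb away. These 3 lie on chromosome 5, where 52.0% of members were gained, against 33.3% of all members. The GABA receptor subunit genes GABRB2 and GABRA6 shared a gained member with a ratio of 8.73 (chr5:161546155-161548237), which had no H2A.Zac region within 487.8 kb and no other H2A.Z region within 1106 kb. Of 508 ZNF genes, 5 had a lost member (among them ZNF683 with a ratio of 8.93, ZNF507 with 8.59 and ZNF385B with 5.91) and 3 a gained member (ZNF365 with 5.53, ZNF474 with 5.39 and ZNF236 with 3.79). Single developmental genes appeared in both directions. TGIF1 (5.12), SOX4 (3.37) and TBX3 (6.91) had lost members, and HOXB13 (4.14), ZFHX4 (9.18), POU1F1 (6.26), SOX13 (4.35) and NEUROG2 (4.49) had gained members, as had JARID2 (4.75), a partner of the Polycomb complex PRC2. Lost members lay at CHRM4 (5.07), COL15A1 (6.65), OR2C1 (4.11) and RPS3 (3.39), and gained members at SCN4B (5.19), KRTAP10-5 (5.79) and RPL36A (5.55). No member lay at the TSS of the 19 TIP60 complex genes, the 7 SRCAP complex and H2A.Z genes, the 39 proteasome subunit genes, the 78 mitochondrial ribosomal protein genes, the 69 replication-dependent histone genes, the 73 WNT, BMP, FGF and TGF-β ligand genes or the 12 erythroid and megakaryocytic and 12 lymphoid genes. EP400 itself, PPP1R12C, which holds the AAVS1 site, and CCND1, TERT and DACH1 held 0 members in the gene and 10 kb around it. No share over all genes is given for this wider window, so nothing is read from these counts.

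Away from TSSs, the members with the highest ratios lay nearest to H2A.Zac regions of their own direction. The highest lost ratio, 30.2, was at chr12:116372826-116374289, in an intron 95.1 kb upstream of the TSS of MED13L, a Mediator kinase module gene, with lost H2A.Zac 1.17 kb away. A pair of lost members with ratios of 26.5 and 25.2 lay 252.4 and 228.5 kb downstream of IRX1, a homeobox gene, and another with 23.9 lay upstream of TIMP4, a metalloproteinase inhibitor gene. Each of these 4 had a lost H2A.Zac region as the nearest. The highest gained ratios were 43.3, 34.6 and 34.2, all in introns of noncoding genes upstream of CPEB4, a gene of translational control. They were joined by 35.6 on the unplaced contig Un_KI270742v1 and by 29.9 near BOD1, and each of these 5 had a gained H2A.Zac region as the nearest.

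Members of the same direction were grouped. When members of a direction within 20 kb of each other were joined, 1687 lost members (51.8%) fell into 611 groups and 591 gained members (36.4%) into 229 groups, with 52 lost and 14 gained groups of at least 5. A fixed distance joins more members where there are more of them. With 3255 lost and 1623 gained members, these grouped shares cannot be compared between the directions. Of 1497 pairs of adjacent members within 20 kb, 1433 had the same direction (95.7%), and of 2501 pairs over 100 kb apart, 1551 did (62.0%). The gained group with the most members lay at chr5:173745822-173815094, over the noncoding genes LINC01484 and LINC01485, and held 16 members with ratios from 8.52 to 43.3 in 69.3 kb. All 18 H2A.Z regions of this span were gained, as were its 5 H2A.Zac regions, and none was lost or unchanged. The next 2 gained groups, of 13 and 9 members, lay on chromosome 13 (chr13:80597650-80660067 and chr13:80547783-80574620), 256.5 and 206.7 kb from SPRY2, a gene of receptor tyrosine kinase feedback. A group of 6 at chr1:219120038-219160606 in LYPLAL1-DT, with ratios from 8.64 to 22.9, held every region of either mark listed in its span. Its 6 members covered 5837 bp of 40.6 kb, and no H2A.Zac region was listed in the span. The lost group with the most members lay at chr10:71620829-71687051 in CDH23 and held 14 members with ratios from 5.44 to 12.1. Its span also held 5 lost H2A.Z regions with H2A.Zac, 7 unchanged H2A.Z regions, and 5 lost and 5 unchanged H2A.Zac regions. The next lost group, of 11 members, lay at chr19:50104290-50138982 near IZUMO2.

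**Figure D3:**
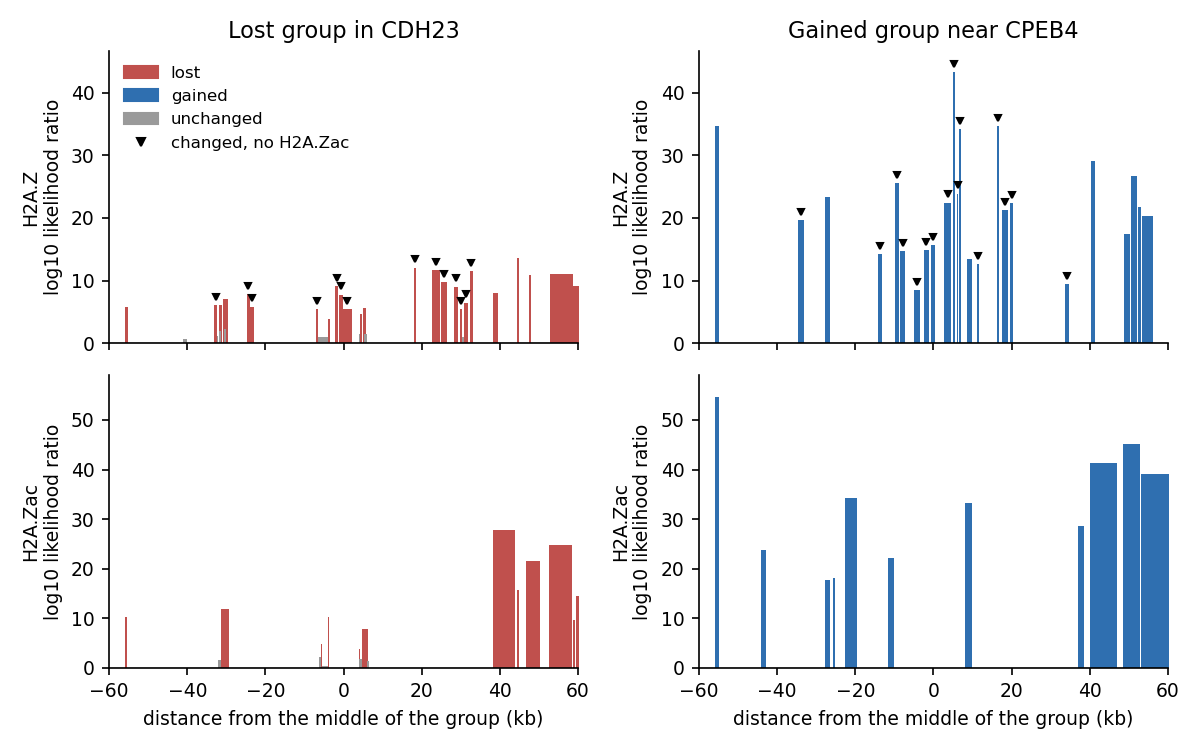
Listed H2A.Z (top) and H2A.Zac (bottom) regions around the lost group in CDH23 and the gained group near CPEB4, by distance in kb from the middle of the group, with the log10 likelihood ratio as height and the class as color. Triangles mark changed H2A.Z regions without H2A.Zac: 14 lie in the lost group and 16 in the gained group.

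The genes with the most members within the gene body and 10 kb around it are described next, with no correction for gene length. CDH23, a cadherin gene of hair cells, held 18 lost members (ratios from 4.51 to 17.4) beside 17 lost H2A.Z regions with H2A.Zac and no gained one. RUNX1, a transcription factor gene of blood formation, held 13 lost members and 1 gained member, with 42 lost, 10 gained and 40 unchanged H2A.Zac regions in the same span. All 13 lost members at RUNX1 had a lost H2A.Zac region as the nearest. TSHZ2, a zinc finger gene, and UNC5C, a netrin receptor gene, held 10 lost members each, up to ratios of 23.4 and 10.2, and MYLK4, a kinase gene, held 8. No H2A.Z region was gained in CDH23, TSHZ2, UNC5C or MYLK4. TSHZ2 lies from 50 to 55 Mb of chromosome 20, a window with 35 lost and 0 gained members. CDH23 lies from 70 to 75 Mb of chromosome 10, with 33 lost and 3 gained members.

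The gained side was led by RXFP1, the relaxin receptor gene, with 10 members (3.89 to 10.8), and by ADGRB3, an adhesion receptor gene of neurons, with 8 (3.88 to 13.4). CADM2, a synaptic adhesion gene, held 6 and GPC6, a glypican gene, held 5 with ratios from 9.09 to 19.1. In these 4 genes other gained H2A.Z regions did share bases with H2A.Zac: 14, 12, 7 and 12 in the same order. ALB, the albumin gene expressed in liver, was different. It held 6 gained members with ratios of 10.6, 4.38, 4.58, 11.2, 13.2 and 6.62 from 3.58 to 34.0 kb past the TSS, and these were all the H2A.Z regions listed in the gene and 10 kb around it. No H2A.Zac region of any class was listed there, and the nearest, a gained one, lay 10.6 kb beyond the last member. This last member (chr4:73430571-73431656) covers the TSS of AFP, the next gene, which encodes the fetal liver protein α-fetoprotein and was named after the values were seen. Lost H2A.Z regions were absent from RXFP1, ADGRB3, CADM2, GPC6 and ALB.

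The base composition of the 2 directions differed. The median GC content was 48.6% in lost and 44.7% in gained members, and 51.3% and 47.8% in lost and gained regions with H2A.Zac. The ratio of observed to expected CpG was low in both, with medians of 0.260 and 0.267, against 0.289 in lost and 0.396 in gained regions with H2A.Zac. Among TSS-distal regions the gained medians were closer, at 0.245 without and 0.276 with H2A.Zac. Gained members had the lower median GC on 20 of 23 chromosomes.

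The GATA motif AGATAA was more common in gained members than in lost members or in H2A.Z regions at large. It was found in the central 300 bases of 382 of 3255 lost members (11.7%, 10.7 to 12.9%) and 357 of 1623 gained members (22%, 20.05 to 24.08%). The share was 13.0% in all H2A.Z regions (12.7 to 13.2%), an interval that overlaps that of lost members, and 10.3% in 35116 RefSeq promoters of 300 bases. Among TSS-distal regions the share was 12.2% in lost (11.0 to 13.4%) and 23.3% in gained members (21.1 to 25.6%). In distal unchanged regions without H2A.Zac it was 15.9% (14.9 to 17.0%), so distal lost members lay below these regions and distal gained members above them. Over all members, the share was higher in gained than in lost members on 23 of 23 chromosomes. On chromosome 6, which had the most gained members (202), the shares were nearly equal, at 13.5% of lost and 13.9% of gained members. Only 2 gained members held the motif on each of chromosomes 19, 20 and 22. The motif is rich in A and T, so the distal members were also compared within classes of GC content. From 40 to 45% GC it was found in 17.6% of lost (14.8 to 20.9%) and 27.9% of gained members (23.7 to 32.5%), and from 45 to 50% GC in 11.2% (9.37 to 13.4%) and 22.96% (18.7 to 27.9%). From 30 to 40% GC the intervals overlapped, at 24.3% (19.5 to 29.9%) and 26.8% (22.4 to 31.6%), as they did from 50 to 55% GC, at 8.42% and 12.2%. The difference was not particular to regions without listed H2A.Zac, since 10.7% of lost and 18.0% of gained regions with H2A.Zac held the motif. A match is a run of letters and not a bound site.

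**Figure D4:**
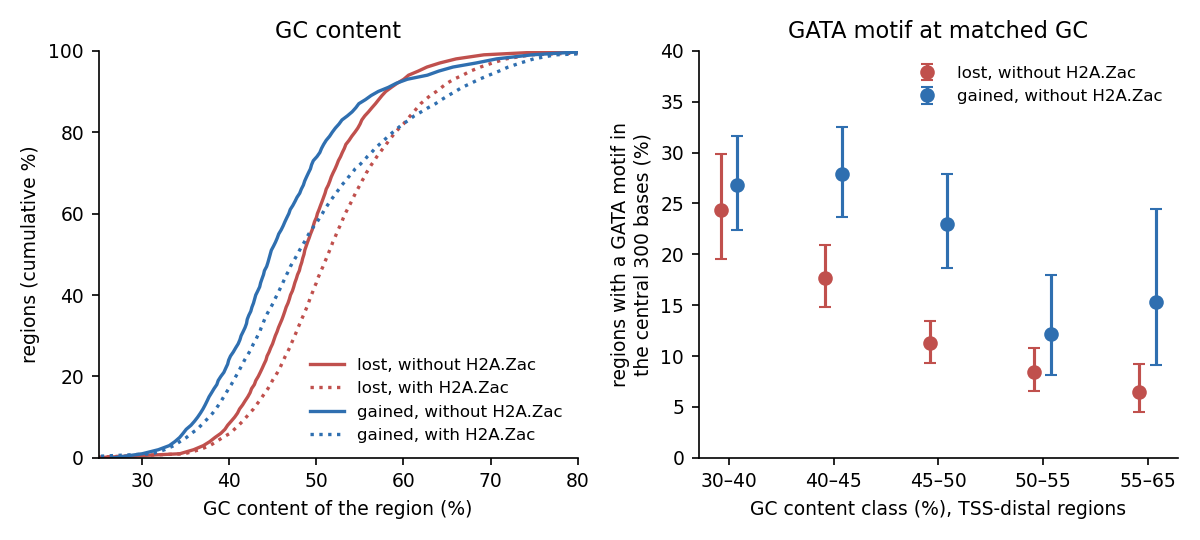
Left, cumulative percentage of changed H2A.Z regions by GC content. Right, percentage of TSS-distal members with AGATAA in the central 300 bases by class of GC content, with Wilson 95% intervals. Gained members lie above lost members in each class, and the intervals are apart from 40 to 45% and from 45 to 50% GC.

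The E-box CACGTG, bound by MYC and its relatives, was found in 5.07% of lost (4.37 to 5.88%) and 2.96% of gained members (2.24 to 3.90%), and in 5.42% of all H2A.Z regions. Here too the changed regions with H2A.Zac differed in the same way, at 6.67% of lost and 3.92% of gained regions. In TSS-distal regions the E-box was found in 4.80% of lost and 2.85% of gained members, and in 3.69% of unchanged regions without H2A.Zac. The GC box GGGCGG was found in 8.97% of lost and 12.9% of gained members, against 26.5% of all H2A.Z regions and 44.95% of promoters. In TSS-distal regions the GC box shares were closer, at 8.50% of lost and 9.42% of gained members, 14.4% of lost and 11.8% of gained regions with H2A.Zac, and 13.4% of unchanged regions without it. The CTCF core CAGNNGGCG was found in 3.195% and 2.71% against 7.46% of all H2A.Z regions, and the ETS motif CCGGAAG in 1.90% and 2.71% against 4.75%. Matches of the CTCF core and the GC box can share bases. AP-1 sites (TGANTCA) were found in 7.80% of lost and 9.43% of gained members against 8.45% of all H2A.Z regions, RUNX sites (TGTGGTT) in 5.38% and 5.98% against 4.30%, and CCAAT boxes (CCAATCA) in 3.44% and 2.65% against 2.79%. Among TSS-distal regions, AP-1 sites were found in 8.13% of lost and 9.49% of gained members. The distal shares were 8.59% of lost and 12.8% of gained regions with H2A.Zac, and 9.35% of unchanged regions without it. YY1 sites (AANATGGCG) were found in 1.17% and 0.863% against 2.08%, and NRF1 sites (GCGCATGC) in 0.553% and 0.678% against 1.16%. The TSS-distal shares of YY1 sites were 1.26% of lost and 0.803% of gained members, and 1.555% of unchanged regions without H2A.Zac. In TSS-distal regions NRF1 sites were found in 0.544% of lost and 0.730% of gained members. Their distal shares were 0.977% of lost and 0.795% of gained regions with H2A.Zac, and 0.767% of unchanged regions without it. The cyclic AMP response element TGACGTCA was found in 1 lost and 2 gained members, and in 286 of all H2A.Z regions.

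The balance of the 2 directions depended on the chromosome. Gained members were 33.9% of the members of the median chromosome, but 5.65% on chromosome 20 (7 gained and 117 lost, 2.76 to 11.2%) and 8.90% on chromosome 19 (13 gained and 133 lost, 5.28 to 14.6%). Chromosome 13 had the highest share, with 60 gained and 39 lost members (60.6%, 50.8 to 69.7%), followed by chromosome 5 with 127 and 117 (52.0%, 45.8 to 58.2%). Changed regions with H2A.Zac shared this pattern, with gained shares of 9.59% on chromosome 20, 16.5% on chromosome 19, 66.4% on chromosome 13 and 60.9% on chromosome 5. On chromosome 20 from 30 Mb to the end, 108 members were lost and 2 gained, and on chromosome 19 from 40 Mb to the end 77 were lost and 5 gained. Of 52 windows of 5 Mb with at least 20 members, 14 had under 10% gained members and 2 had over 90%. The latter were 170 to 175 Mb of chromosome 5, with 2 lost and 31 gained members, and 80 to 85 Mb of chromosome 13, with 0 lost and 26 gained. Without chromosomes 19 and 20 the gained share of members was 34.8%, against 47.0% of changed regions with H2A.Zac. Input libraries were not analysed here, and whether the copy number of these chromosomes differed between the lines was not tested. A further 30 members lay on unplaced or unlocalized contigs, of which 26 were gained and 4 lost. Changed regions with H2A.Zac on these contigs were also mostly gained.

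**Figure D5:**
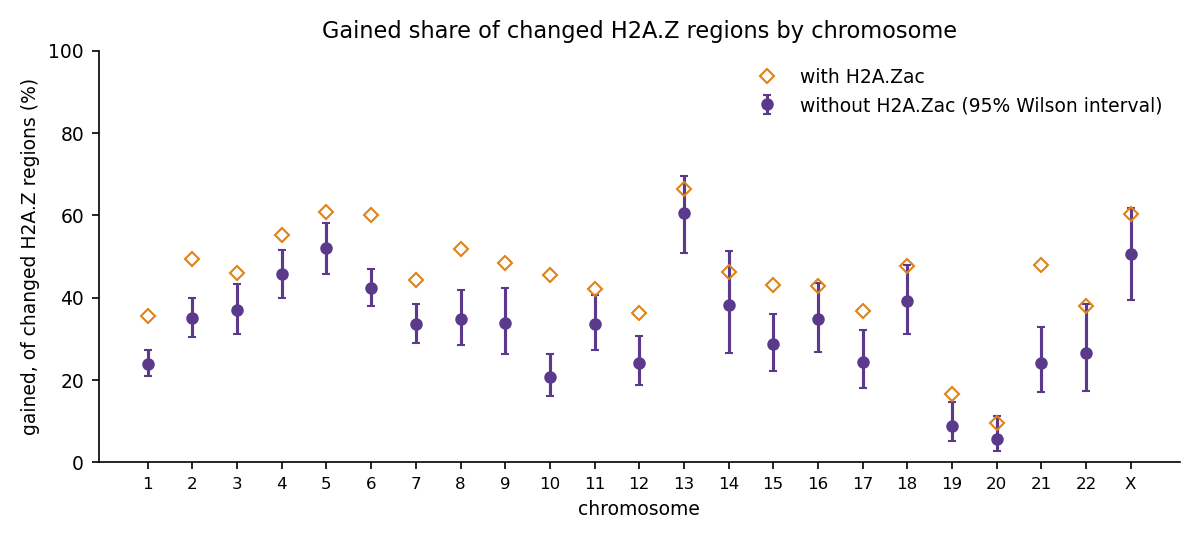
Gained regions as a percentage of changed H2A.Z regions on each chromosome, for members (filled, with Wilson 95% intervals) and for regions that share bases with H2A.Zac (open diamonds). Chromosomes 19 and 20 lie lowest, at 8.90% and 5.65% of members, and chromosome 13 highest, at 60.6%.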

How the data were processed

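The data are ChIP-seq of H2A.Z and H2A.Zac, with inputs, in 12 K562 libraries. The authors aligned reads to hg38 with Bowtie2 2.4.5 and called peaks with MACS2 2.2.7.1, merged the replicates, and compared WT with ΔTRRAP by bdgdiff after scaling to effective depth. The deposited score of each region is the authors' log10 likelihood ratio, at least 3 in changed and under 3 in unchanged regions. The authors kept regions with at least 25% of their length in peaks reproducible at an IDR of 0.05. Depth per library is unknown here, so no precision can be given for a single region.

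The 6 lists were used as deposited. Members share 0 bases with H2A.Zac. Members, gene lists and motifs were chosen with earlier results of these data known. TSSs came from GENCODE release 44, later than the release of the study, and promoter sequences from RefSeq (hg38). Shares carry Wilson 95% intervals (scipy 1.17.1), and bedtools 2.31.1, pandas 2.3.3 and pysam 0.24.0 were used. In 2000 simulated regions, covered lengths differed from bedtools in 0 cases. Genes named are, per direction, the 10 highest ratios at a protein-coding TSS, the 5 highest distal ratios, the 5 genes with the most members, up to 3 genes per list, and EP400, PPP1R12C, CCND1, TERT and DACH1. Genes named beside groups are the nearest or overlapping ones, and PCDHA2 and AFP were named after their values were seen. Alternatives were another overlap rule, a distance to H2A.Zac, ratio and width cutoffs, merging, base pairs, other TSS windows and left-out chromosomes. One of the 5 distal lost regions and its sequence are not reported here. Repeats, input libraries and signal tracks were not analysed here.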

Additional observations from a re-analysis of the deposited data

How the results depend on the processing

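No paired analysis was possible because the lists come from merged replicates and hold no value per replicate. For the same reason no replicate could be left out. The direction of each contrast held under every alternative run: more lost than gained members, a larger lost than gained share without H2A.Zac, and a larger gained share near a TSS. The sizes moved. A ratio of at least 10 left 388 lost and 227 gained members, shares without H2A.Zac of 27.5% and 25.1%, and TSS-proximal shares of 7.99% and 13.7%. Regions of at least 500 bp left 1691 lost and 750 gained members, and a gained share without H2A.Zac of 19.3%. A ratio of at least 5 gave 26.7% and 20.6%, an overlap of 25% of the length 26.9% and 18.9%, and no H2A.Zac within 1 kb 20.7% and 15.8%. The lost share was 24.2% with regions within 1 kb merged and 27.2% without chromosomes 19 and 20, and at most 26.9% with each chromosome left out. TSS-proximal shares of lost and gained members were 15.2% and 20.5% in a window of 2 kb and 3.72% and 8.996% for protein-coding TSSs, and 8.34% for lost members with no H2A.Zac within 1 kb. Of the alternatives chosen after the data were seen, members with no other H2A.Z region within 1 kb held AGATAA in 10.4% of lost and 23.4% of gained cases, and those with a ratio of at least 10 in 9.02% and 22.5%.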
